A study of Mus musculus with 6 samples.

Results

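Retinoid storage and retinoic acid metabolism were followed through 9 genes that esterify, carry, oxidise or clear vitamin A compounds: Lrat, Rbp4, Rdh7, Rdh16, Aldh1a1, Aldh1a7, Cyp26a1, Cyp26b1 and Dhrs3. They were found by gene symbol in a deposited table of 22183 symbols, all 9 had an entry, and all 9 were among the 14681 genes that passed the filter on low counts. Liver RNA came from 6 mouse samples, 3 labelled S2W-PBS and 3 labelled S2W-DOX, called PBS and DOX here. The genotype BucheKI/KI-Hep and a DDC treatment are given for every sample, so the knock-in and DDC were shared by both groups, and the groups differed by the PBS or DOX in their names. The series gives overexpression of BUCHE (butyrylcholinesterase, gene symbol Bche) in hepatocytes together with a DDC model as its design, and its title concerns the activation of hepatic stellate cells. The labels do not spell out DOX, DDC or S2W, and the sources used here give neither the promoter behind the knock-in nor dose, duration, age or sex. Whether the 3 samples of each group are different mice is not labelled, and the p-values reflect only how far these samples spread, possibly for technical reasons.

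Vitamin A reaches the liver as retinyl esters. Hepatocytes hydrolyse them and release retinol, bound to Rbp4, to the blood. Retinol also passes to hepatic stellate cells, where Lrat turns it back into esters for storage in lipid droplets. Retinol is oxidised reversibly to retinal and then irreversibly to retinoic acid, the ligand of the nuclear retinoic acid receptors, and enzymes of the Cyp26 family hydroxylate retinoic acid for clearance. Cyp26a1 is itself a textbook target of retinoic acid, and stellate cells are known to lose their retinyl esters when they turn into collagen-producing cells.

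The results turn most on Cyp26a1, so the RefSeq window around an annotated start of this gene is shown (mouse assembly GRCm38.p6, chr19:37697558-37697857, plus strand, which is the strand of the gene, written 5′ to 3′). It covers 250 bases before and 50 bases from the start at 37697808, which lies 70 bases inside the outermost RefSeq start of the gene. Capitals mark a match to a direct repeat with a 5-base gap, the arrangement classically bound by retinoic acid receptors. It is on the opposite strand and 32 to 16 bases before the start used here. Counted from the outermost RefSeq start, the match lies inside the gene.
Cyp26a1 window: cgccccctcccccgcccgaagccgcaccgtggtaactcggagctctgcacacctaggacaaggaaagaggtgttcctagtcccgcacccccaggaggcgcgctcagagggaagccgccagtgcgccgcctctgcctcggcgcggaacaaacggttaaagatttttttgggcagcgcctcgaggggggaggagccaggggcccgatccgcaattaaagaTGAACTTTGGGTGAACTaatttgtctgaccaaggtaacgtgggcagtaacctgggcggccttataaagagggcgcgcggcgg
Cyp26a1 match, strand of the repeat: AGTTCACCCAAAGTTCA
Rarb match, strand of the gene: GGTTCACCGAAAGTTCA
The repeat unit searched on both strands was A or G, then G, then G or T, then TCA, written 2 times in the same direction with 5 bases between, 17 bases in all. Such a match was present in 32 of 32851 RefSeq start windows of this length (0.0974%), and among the 14 windows of the 9 genes in the Cyp26a1 window alone. The only other retinoid pathway gene listed here with a match was the receptor gene Rarb, at chr14:16575513-16575529. With a 2-base or a 1-base gap, 0.268% and 0.222% of windows matched and none of the 14, and among the other listed pathway genes Bco1, for a carotenoid cleaving enzyme, matched with the 1-base gap. A match is a string of letters, not a measured binding site, and these data hold no measurement of receptor binding.

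Total counts per library ran from 32476725 to 41921404, and mitochondrially encoded genes took 3.45 to 4.58% of the counts in PBS and 5.11 to 6.81% in DOX libraries, whose part in the results was not tested. Levels are given as CPM (the count of a gene scaled to a common library size after TMM correction for composition), and differences as log2 fold changes of DOX over PBS, with adjusted p-values from edgeR's quasi-likelihood test over all 14681 genes tested and a call at an adjusted p under 0.05. Bche stood at 177, 177 and 206 CPM in PBS and at 1938, 1867 and 1763 CPM in DOX libraries, a 9.94-fold rise of the gene named in the design (adjusted p = 1.65e-07). All 10 hepatocyte markers looked up were measured, and Alb, the albumin gene, stood at 70083 CPM or more in each of the 6 libraries. In bulk tissue, fewer cells of a type and less RNA per cell cannot be told apart, which holds for every gene below.

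Of the 9 retinoid genes, 4 were higher in DOX samples (Cyp26a1, Cyp26b1, Rbp4 and Rdh7), 3 were lower (Rdh16, Aldh1a1 and Lrat), and Aldh1a7 and Dhrs3 were not called. Over all genes tested, 13.5% were called higher and 14% lower. Scaled by library size alone, 3 of the 9 were higher and 4 lower, beside 1028 genes higher and 3429 lower in all. The largest change among the 9 was that of the retinoic acid hydroxylase Cyp26a1, at 7.27-fold higher, while the other called genes moved by 1.37-fold to 2.64-fold. The 2 groups did not overlap in CPM for 8 of the 9, against 44.1% of all genes. The 9 genes were chosen with earlier results of these data known, so these counts describe the set and do not test it. The median log2 fold change of the 9 genes was -0.09, beside -0.01 over all genes tested. Leaving out PBS 1 left 1 gene called higher, leaving out PBS 2 or DOX 1 left 2 genes, and Rdh7 and Cyp26b1 were lost each time and Rbp4 also without PBS 1.

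**Figure D1:**
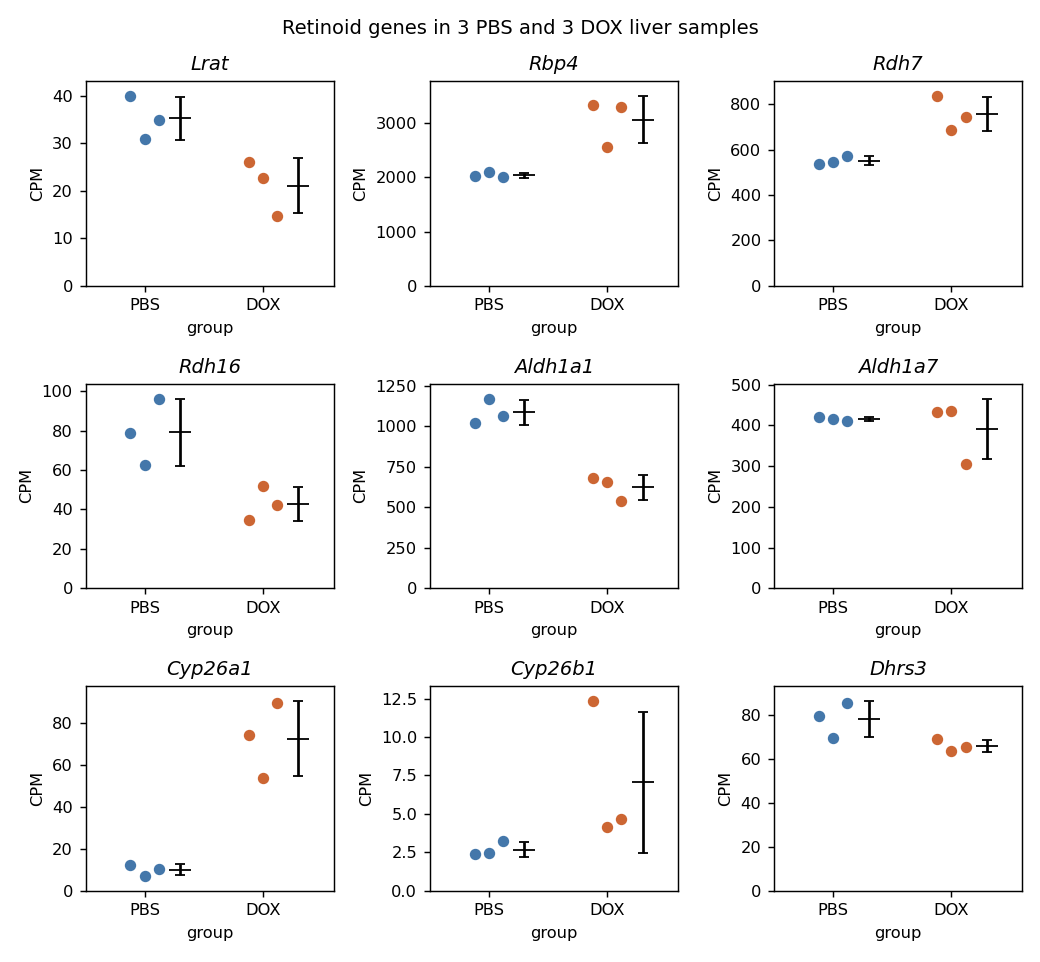
Each panel shows CPM (vertical axis, from 0) of a retinoid gene in 3 PBS and 3 DOX libraries (horizontal axis); points are libraries and the bars beside them give mean and SD. Cyp26a1 sits between 7.16 and 12.2 in PBS and between 53.9 and 89.6 in DOX libraries, whereas Aldh1a7 overlaps between the groups.

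The genes of retinoic acid clearance are given first. Cyp26a1, which hydroxylates all-trans retinoic acid and is the main such enzyme of liver, stood at 12.2, 7.16 and 10.6 CPM in PBS 1 to 3 and at 74.6, 53.9 and 89.6 CPM in DOX 1 to 3. The groups were far apart, and no PBS library came near the lowest DOX library. Group means were 9.99 ± 2.58 and 72.7 ± 17.9 CPM (SD, n = 3 each), with a log2 fold change of 2.86 (SE 0.24, 95% interval 2.32 to 3.41, adjusted p = 0.000232). Its gene, on chromosome 19 from 37697738 to 37701536, overlaps the start window printed above. Over all 13 alternative settings the log2 fold change of Cyp26a1 stayed between 2.67 and 3.05, and the call was kept in each.

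Cyp26b1, the second retinoic acid hydroxylase (chromosome 6, 84571414 to 84593908), was rare, at 2.37, 2.46 and 3.21 CPM in PBS and 12.3, 4.16 and 4.67 CPM with DOX. All DOX libraries were above all PBS libraries, but DOX 1 alone stood far above the other DOX libraries. Its log2 fold change was 1.40 (SE 0.41, 95% interval 0.47 to 2.32, adjusted p = 0.0337). Without DOX 1 it fell to 0.72 and was not called (0.0677), and it also missed the threshold without PBS 1 (0.121), PBS 2 (0.122) or PBS 3 (0.0756) and with no low-count filter (0.134), with alternatives spanning 0.000682 to 0.134. Of 11 endothelial markers, none at 0, 5 were called higher and 6 were not called, with a summed level of 368 to 427 CPM in PBS and 447 to 525 CPM with DOX. Among them the adhesion molecule Pecam1 rose by 0.69 and the angiopoietin receptor Tek by 0.61 on the log2 scale. Also called higher were Lyve1 (log2 fold change 1.25, adjusted p = 0.0279) and Stab1 (0.40, adjusted p = 0.0193). Clec4g, a lectin of sinusoidal endothelium, stood at 38.0, 38.7 and 40.5 CPM in PBS and at 36.3, 40.0 and 20.5 CPM with DOX. It was not called (log2 fold change -0.28, adjusted p = 0.365), and its low DOX mean came from DOX 3. Lyve1, Stab1 and Clec4g were picked with their values in view. The part of endothelial cells in the Cyp26b1 difference was not tested.

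Of the 3 other genes listed for retinoic acid hydroxylation, Cyp2c39, a cytochrome P450 with retinoic acid hydroxylase activity, rose from 7.26, 4.02 and 8.01 CPM in PBS to 15.5, 16.1 and 17.0 CPM with DOX (log2 fold change 1.33, adjusted p = 0.00199). It belongs to a family of closely similar genes, and how reads common to several copies were counted is unknown here. Cyp2s1 stood at 1.73 ± 0.475 and 3.06 ± 0.755 CPM (SD, n = 3) and was not called by edgeR (adjusted p = 0.0568), though DESeq2 called both tested genes of this step higher, and Cyp26c1 fell below the filter on low counts.

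The carrier Rbp4, which hepatocytes secrete to bring retinol to other tissues, had the highest FPKM level of the 9 genes in both groups. It stood at 2026, 2090 and 2004 CPM in PBS and at 3330, 2562 and 3290 CPM with DOX. PBS libraries were tightly grouped, and DOX 2 was the lowest of the DOX libraries but above every PBS library. The rise was 1.50-fold (log2 fold change 0.59, SE 0.14, adjusted p = 0.0121). Leaving out PBS 1 gave an adjusted p of 0.053, and the alternatives spanned 6.26e-05 to 0.053. Rbp4 lies on chromosome 19 from 38116620 to 38125321, 415 kb from Cyp26a1.

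Ttr, transthyretin, which binds the Rbp4 protein in plasma, stood at 2242 ± 148 CPM with PBS and 1697 ± 416 CPM with DOX (SD, n = 3), with a log2 fold change of -0.40 that was not called (adjusted p = 0.113). Of 12 listed genes for carriers, uptake and carotenoid cleavage, Ttr included, 7 were tested and 0 were called by edgeR or by DESeq2, while 3 had an unadjusted p under 0.05. The smallest p-values among them were those of Stra6l, a receptor for Rbp4-bound retinol in liver, with a log2 fold change of 0.29 (adjusted p = 0.0881), and of Fabp5, a lipid binding protein that also carries retinoic acid, at -0.41 (adjusted p = 0.0955). Fabp5 was called lower under 4 alternatives, with adjusted p-values of 0.0233 scaled by library size alone, 0.046 with no low-count filter, 0.0409 with a replicate block and 0.0385 without PBS 2, and at most 0.344 elsewhere.

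Lrat, the enzyme that esterifies retinol and a defining gene of stellate cells in liver, stood at 39.9, 30.9 and 34.9 CPM in PBS and at 26.0, 22.7 and 14.6 CPM with DOX. The groups did not overlap, and DOX 3 was the lowest library. Lrat was 1.67-fold lower (log2 fold change -0.74, SE 0.19, 95% interval -1.16 to -0.32, adjusted p = 0.0175). It missed the threshold without PBS 1 (0.0591) or PBS 3 (0.0514), with alternatives between 0.00165 and 0.0591. Without DOX 3 the log2 fold change was -0.53 and the call was kept (adjusted p = 0.0302). Over all alternatives it ran from -0.92 to -0.53. DOX 3 also had the smallest total count and the largest mitochondrial share of all libraries, whose part was not tested. Of 15 stellate cell markers listed besides Lrat, none at 0, Hhip was called higher and Pdgfrb and Colec11 were called lower. The summed level of the 15 markers, 802 to 1080 CPM in PBS, overlapped that of 912 to 1234 CPM with DOX. The largest part of this sum was Dcn, not called, at 399 CPM in PBS and 537 CPM with DOX on average. The hedgehog inhibitor Hhip had a log2 fold change of 1.39. The growth factor receptor Pdgfrb (-0.45) missed the threshold without PBS 1 (0.079) or DOX 3 (0.0631), and the collectin Colec11 (-0.65) without PBS 1 (0.0872), PBS 2 (0.081) or DOX 3 (0.0585). The part of stellate cell number in the Lrat difference was not tested. Lrat is on chromosome 3, from 82892582 to 82903974.

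Of 7 other genes of retinyl ester turnover listed and tested, 6 were not called. Ces1e, a carboxylesterase that hydrolyses retinyl esters, fell by 0.59 (log2, adjusted p = 0.0136). Ces1e missed the threshold without PBS 3 (0.0559) or DOX 3 (0.0508), with alternatives between 0.000441 and 0.0559, and it belongs to a cluster of closely similar genes. Dgat1, an acyltransferase that can also esterify retinol, had a log2 fold change of -0.23 (95% interval -0.47 to 0.02).

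The retinol dehydrogenases Rdh7 and Rdh16, short-chain dehydrogenases that oxidise retinol and also act on steroids, went in opposite directions. Rdh7 stood at 536, 547 and 573 CPM in PBS and at 835, 688 and 744 CPM with DOX. Every DOX library was above every PBS library, with a log2 fold change of 0.45 (SE 0.12, adjusted p = 0.0187). With library size scaling the value was 0.30 and not called (adjusted p = 0.0771), and the call was also lost without PBS 1 (0.0818), PBS 2 (0.0655) or DOX 1 (0.071), with alternatives between 0.000769 and 0.0818.

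Rdh16 stood at 78.5, 62.4 and 96.2 CPM in PBS and at 34.5, 51.8 and 42.3 CPM with DOX. The groups were apart, though the highest DOX and the lowest PBS library were close. It fell by 0.88 on the log2 scale (SE 0.18, 95% interval -1.28 to -0.49, adjusted p = 0.00617), and the call was kept in all 13 alternatives. Both genes lie in a cluster on chromosome 10, Rdh16 from 127801090 to 127815846 and Rdh7 from 127884027 to 127889247, with 68.2 kb between them. In the longest GENCODE M21 coding transcripts, 13.2% of 50-base windows for Rdh7 and 15.1% for Rdh16 also occur in another gene's transcript. Of the 100-base windows, 4.12% and 6.66% do. The genes sharing the most windows carried Rdh names, Rdh18-ps among them for Rdh7. Reads within these stretches cannot be assigned by sequence, and the read length is not given in the labels. In the same cluster Rdh16f2, a further member of the family, rose by 0.80 on the log2 scale with an adjusted p of 0.000425, from 34.3 ± 1.32 to 59.5 ± 3.60 CPM (SD, n = 3), and Rdh9 was not called (log2 fold change -0.32, adjusted p = 0.117).

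Dhrs3, the retinal reductase that works against retinol oxidation, stood at 79.7, 69.8 and 85.8 CPM in PBS and at 69.2, 63.9 and 65.5 CPM with DOX. The DOX libraries lay just below the PBS libraries. Its log2 fold change of -0.24 (95% interval -0.47 to -0.02) was not called (adjusted p = 0.104), but library size scaling made it -0.40 and called (adjusted p = 0.0107), with alternatives between 0.0107 and 0.314. The same scaling moved the median of all genes from -0.01 to -0.16. Dhrs3 spans 144892534 to 144928209 on chromosome 4.

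Of 20 further genes of the steps between retinol and retinal, 15 were tested, of which 2 rose and 4 fell. Retsat, which saturates retinol to dihydroretinol and so takes it out of this route, showed the largest fall, from 331, 353 and 398 CPM in PBS to 141, 151 and 100 CPM with DOX (log2 fold change -1.46, SE 0.16, adjusted p = 0.000189). Adh1, an abundant liver alcohol dehydrogenase that also oxidises retinol, fell by 0.57 on the log2 scale (adjusted p = 0.0134). Dhrs4, an NADPH-dependent retinal reductase, fell by 0.53 on the log2 scale (adjusted p = 0.00582). Adh4, another alcohol dehydrogenase, fell by 0.43 on the log2 scale (adjusted p = 0.0358). That call was lost without PBS 1 (0.089), PBS 2 (0.0755), PBS 3 (0.0991), DOX 1 (0.0891) or DOX 3 (0.128), with alternatives between 0.0036 and 0.128. Adh5, known mainly for formaldehyde removal, had a log2 fold change of 0.44 (adjusted p = 0.0143), a call lost without PBS 1 (0.0674) and with library size scaling (0.0747), with alternatives between 0.000185 and 0.0747. Rdh10, the main retinol dehydrogenase of the embryo, was not called, at 27.8 ± 1.69 and 26.9 ± 3.71 CPM (SD, n = 3; 95% interval of the log2 fold change -0.31 to 0.21).

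Aldh1a1, the retinal dehydrogenase that makes retinoic acid in adult liver, stood at 1022, 1171 and 1064 CPM in PBS and at 679, 655 and 537 CPM with DOX. The groups were well apart, with the highest DOX library at 679 CPM and the lowest PBS library at 1022 CPM. The fall was 1.74-fold (log2 fold change -0.80, SE 0.13, 95% interval -1.09 to -0.50, adjusted p = 0.002), and the call was kept in all 13 alternatives.

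Aldh1a7, its close relative with little known activity on retinal, stood at 421, 416 and 411 CPM in PBS and at 433, 436 and 306 CPM with DOX. DOX 1 and DOX 2 were slightly above the PBS libraries and DOX 3 was well below them. Its log2 fold change was -0.09 (95% interval -0.40 to 0.23, adjusted p = 0.688), and 0.06 without DOX 3 (adjusted p = 0.76). With library size scaling it was -0.25 (adjusted p = 0.185), and the adjusted p ranged from 0.185 to 0.794. The 2 genes are neighbours on chromosome 19, Aldh1a1 from 20492583 to 20643463 and Aldh1a7 from 20692953 to 20727556, 49.5 kb apart. Of their transcripts' 50-base windows, 6.54% for Aldh1a1 and 7.49% for Aldh1a7 occur in both, and 0.0443% and 0.0508% of the 100-base windows, so most of their sequence tells them apart.

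Among the 5 other genes for the step from retinal to retinoic acid, Aldh1a2, a second retinal dehydrogenase, fell from 10.3, 6.87 and 8.81 CPM to 3.97, 3.09 and 2.95 CPM (log2 fold change -1.37, SE 0.20, adjusted p = 0.00107). The aldehyde oxidase Aox1 fell by 0.75 on the log2 scale (adjusted p = 0.000679). Both calls were kept in all 13 alternatives. Aldh8a1 was called higher, with a log2 fold change of 0.37 (adjusted p = 0.0274), but it missed the threshold in 6 alternatives, with adjusted p-values of 0.0866 without PBS 1, 0.114 without PBS 2, 0.0565 without PBS 3, 0.0672 without DOX 1, 0.0746 with a replicate block and 0.14 with library size scaling, with all alternatives between 0.00583 and 0.14.

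As a comparison chosen after the values were seen, 3 pairs of related genes were set against each other by their FPKM ratio within each library. No scaling between libraries can change this ratio. Its level depends on the gene lengths behind the deposited FPKM, while the log2 difference between the groups does not. With 3 libraries against 3 an exact permutation test cannot go below p = 0.1, so these ratios cannot pass 0.05. Aldh1a1 stood at 1.65, 1.92 and 1.76 times Aldh1a7 in PBS and at 1.07, 1.03 and 1.20 times in DOX samples, a difference of -0.70 on the log2 scale (two-sided exact permutation p = 0.1, adjusted p = 0.1 over 3 pairs). Rdh7 stood at 13.9, 17.9 and 12.1 times Rdh16 in PBS and at 49.4, 27.1 and 35.8 times in DOX samples (difference 1.33, exact permutation p = 0.1). The Cyp26a1 to Cyp26b1 ratio was 34.8, 19.6 and 22.2 in PBS and 40.8, 87.5 and 129 in DOX samples (difference 1.64, exact permutation p = 0.1). In each pair the groups did not overlap, with the narrowest gap between PBS 1 and DOX 1 for the Cyp26 pair.

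**Figure D2:**
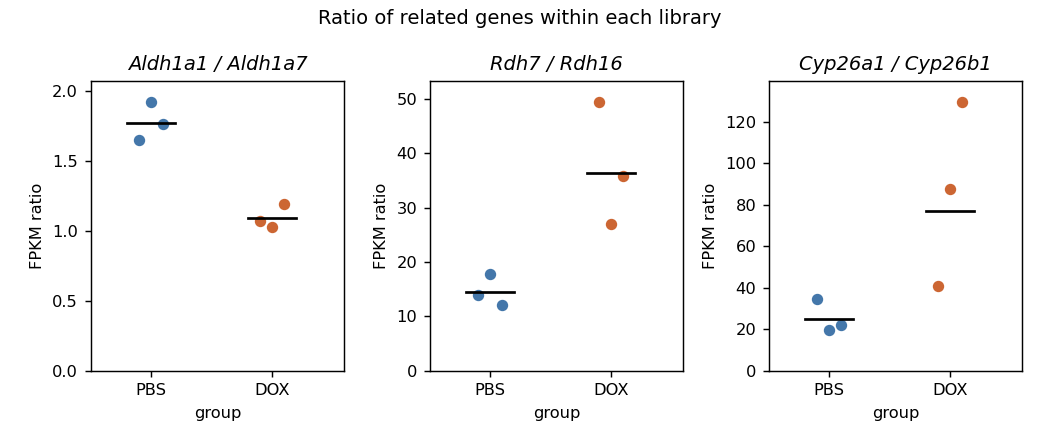
Ratio of FPKM values (vertical axes, from 0) of related genes in each of 3 PBS and 3 DOX libraries (horizontal axes); points are libraries and bars are geometric means. Aldh1a1 to Aldh1a7 runs from 1.65 to 1.92 in PBS and from 1.03 to 1.20 in DOX libraries.

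Levels of different genes were set side by side as deposited FPKM, which are counts scaled to gene length and library total without TMM. In PBS samples the order was Rbp4 (1661 FPKM), Aldh1a1 (380 FPKM), Rdh7 (362 FPKM), Aldh1a7 (213 FPKM), Rdh16 (25.3 FPKM), Dhrs3 (17.1 FPKM), Lrat (6.96 FPKM), Cyp26a1 (5.69 FPKM) and Cyp26b1 (0.226 FPKM). Aldh1a1 overlapped Rdh7 there, and Lrat overlapped Cyp26a1, so these neighbours were not separated by their spread. In DOX samples Cyp26a1 had moved from rank 8 to rank 5, at 37.3 ± 9.89 FPKM (SD, n = 3), above Dhrs3 (13.0 FPKM), Rdh16 (12.4 FPKM) and Lrat (3.72 FPKM). Rdh7 (445 FPKM) then stood above Aldh1a1 (195 FPKM), and Aldh1a1 overlapped Aldh1a7 (180 FPKM), as Dhrs3 did Rdh16. A longer gene length gives a lower FPKM, and the length behind the deposited values was 12481 bases for Cyp26b1 and 4826 bases for Dhrs3, against 4495 and 2337 bases for their longest GENCODE M21 coding transcripts. Values were also rescaled to that transcript, a choice made after they were seen. Dhrs3 then stood at 35.4 ± 2.74 FPKM in PBS (SD, n = 3), above Rdh16 at 25.9 ± 4.78 FPKM. This reversed their deposited order in PBS, where the 2 genes were apart both before and after rescaling. In DOX samples, where the deposited values overlapped, Dhrs3 was above Rdh16 without overlap after rescaling. Aldh1a1, at 486 FPKM in PBS and 250.1 FPKM in DOX samples, then no longer overlapped Rdh7 or Aldh1a7. Cyp26a1 kept rank 8 in PBS and rank 5 in DOX samples, and Cyp26b1 stayed last.

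**Figure D3:**
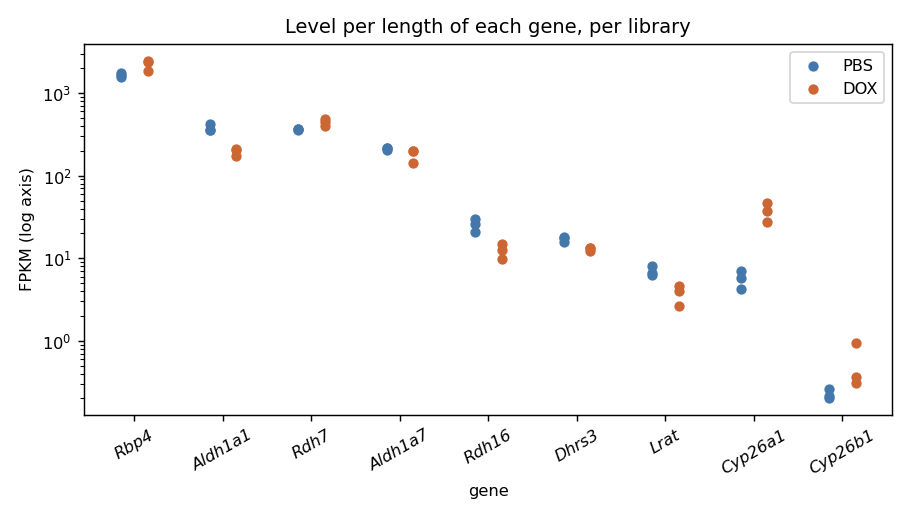
FPKM on a log axis (vertical) for each of the 9 genes (horizontal, in order of the PBS mean), with 3 PBS and 3 DOX libraries as points. Cyp26a1 moves from rank 8 to rank 5, from 5.69 FPKM on average in PBS to 37.3 FPKM in DOX samples.

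The receptors and other genes induced by retinoic acid were read next. Of the 6 receptor genes, Rxra, the main retinoid X receptor of liver, was called higher, by 0.41 on the log2 scale with an adjusted p of 0.0303, from 333 ± 22.2 to 442 ± 46.6 CPM (SD, n = 3), and the other 5 were not called. The Rxra call was lost in 6 alternatives, with adjusted p-values of 0.102 without PBS 1, 0.116 without PBS 2, 0.0506 without PBS 3, 0.0707 without DOX 3, 0.0666 with a replicate block and 0.125 with library size scaling, with all alternatives between 0.00603 and 0.125. Rarb, the receptor gene whose start window holds the other match printed above, stood at 7.65, 5.82 and 7.03 CPM in PBS and at 7.14, 8.84 and 8.35 CPM with DOX. These overlapped, and the 95% interval of its log2 fold change was -0.11 to 0.61 (adjusted p = 0.285).

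Of 7 further genes known to be induced by retinoic acid, 5 were tested and Nrip1, a corepressor of nuclear receptors, was called higher (log2 fold change 0.42, adjusted p = 0.0449), although its groups overlapped. The call was lost without PBS 1 (0.157), PBS 2 (0.151) or DOX 3 (0.171), with library size scaling (0.167) and without robust estimation (0.0508), with alternatives between 0.0196 and 0.171. Tgm2, the tissue transglutaminase and a classic retinoic acid target, stood at 330 ± 33.6 CPM in PBS and 241 ± 70.0 CPM with DOX (SD, n = 3) and was not called (adjusted p = 0.0906).

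Taking the 60 other pathway genes as a whole, 59 were matched by symbol (all but Rdh16f1), 47 were tested, 6 were called higher and 7 lower, and the median log2 fold change was 0.08. The 12 below the filter had at most 14 counts in any library. As shares of the genes tested these calls are close to the 13.5% and 14% of all genes. Of the 47, 12 were higher and 11 lower in DOX without overlap of the groups and 24 overlapped, beside 44.1% of all genes without overlap. With library size scaling 2 were higher and 17 lower. Leaving out PBS 1 left 2 called higher and leaving out PBS 2 left 3, while DESeq2 called 9 higher and leaving out DOX 2 gave 8. With no low-count filter 7 were higher and 11 lower.

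**Figure D4:**
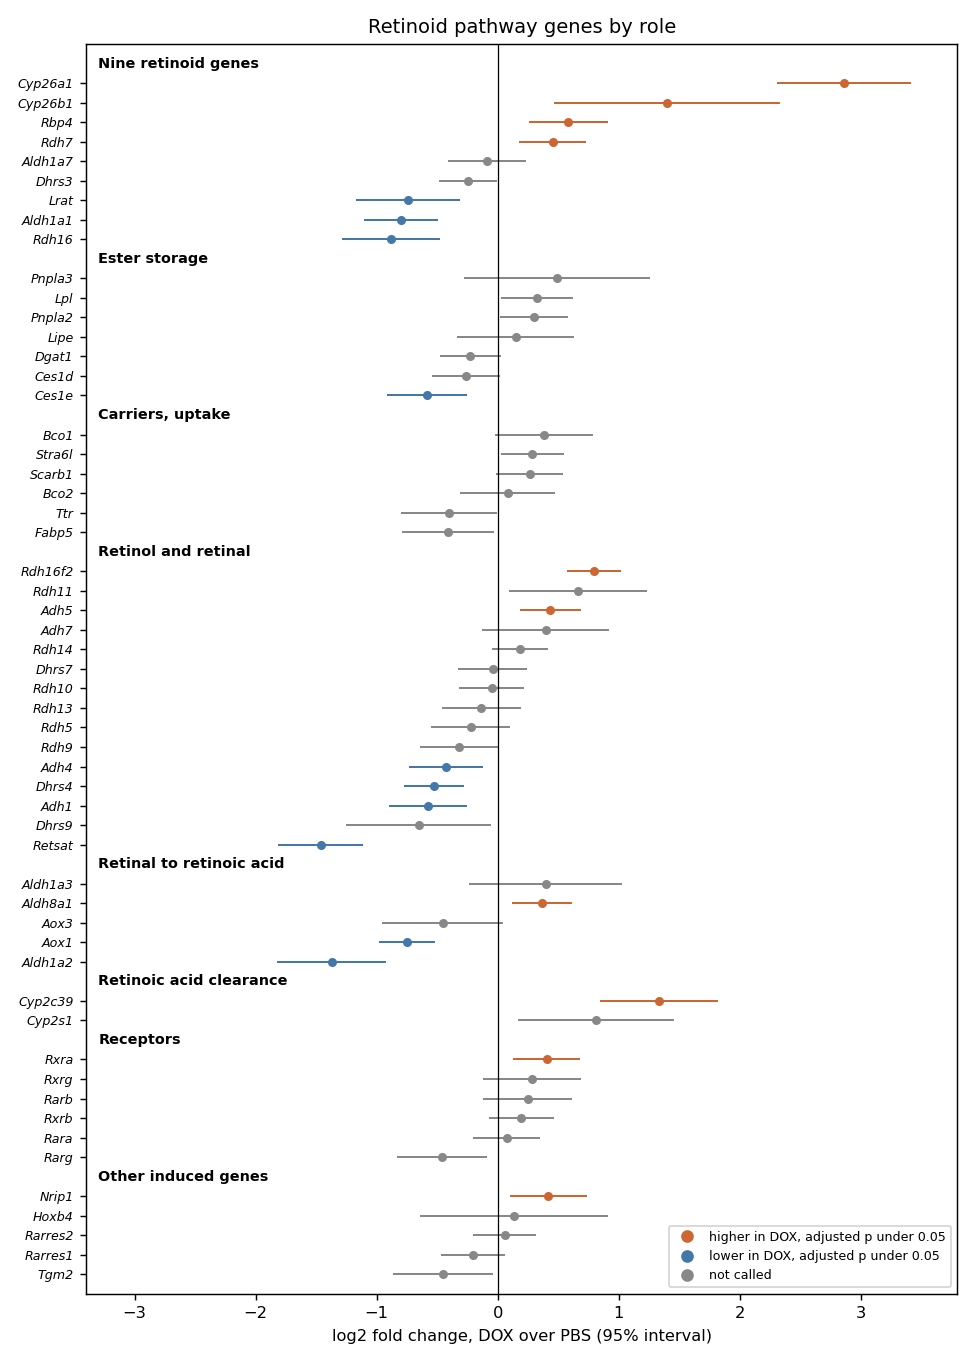
Log2 fold change of DOX over PBS (horizontal axis) with its 95% interval for the 9 genes and other tested pathway genes, grouped by role; orange marks genes called higher, blue genes called lower and grey genes not called. Cyp26a1 lies farthest to the right at 2.86, and Retsat at -1.46 and Aldh1a2 at -1.37 farthest to the left.

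Markers of liver cell types were read alongside. Of 10 hepatocyte markers 4 rose, among them Tat by 1.43 and Serpina1a by 0.92 on the log2 scale, and their summed level was 114280 to 124562 CPM in PBS and 119449 to 148818 CPM with DOX. Of 8 bile duct markers Sox9 and Cftr fell, by 0.96 and 0.90 on the log2 scale, with a summed level of 796 to 964 CPM in PBS and 558 to 801 CPM with DOX. Most of this sum was Spp1, not called, at 717 CPM in PBS and 533 CPM with DOX on average. Most of the hepatocyte sum was Alb, also not called, at 71321 and 82252.5 CPM on average. Of 9 macrophage markers Vsig4 and Marco rose and Cd5l fell, with sums of 1193 to 1302 and 1183 to 1373 CPM. The Cd5l call was lost without PBS 1 (0.0522), PBS 2 (0.0683) or DOX 3 (0.0627). No marker on these lists was at 0 in any library, and the part of cell composition in the 9 retinoid genes was not tested.

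The genes whose pattern was most like that of the called gene of smallest p in each direction were then named, by the root mean square distance of log2 CPM centred on each gene's mean over the 6 libraries. Nearest to Cyp26a1 were Ssbp2 (distance 0.23), Slc22a26 (0.26) and Gstm5 (0.35), with log2 fold changes of 2.88, 2.51 and 3.10. Nearest to Aldh1a1 were Eci1 (0.02), Mthfsd (0.05) and Galnt10 (0.05), with log2 fold changes of -0.82, -0.80 and -0.90. Such likeness rests on the difference between 2 groups of 3 libraries for the most part and is a description.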

How the data were processed

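RNA of 6 mouse liver samples was extracted with RNeasy, and a SMARTER mRNA kit gave the libraries (source: the labels' protocols). The authors deposited whole-number counts per gene symbol and FPKM values. FPKM equalled the count divided by library total and a gene length, whole to 0.01 bases in 99.9% of genes. The submitters' processing notes name GRCm38, mm10 and hg38 without a role. Aligner, counter, strand setting and annotation: not given in the sources used here. Columns were matched to samples by title.

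DOX was tested against PBS with edgeR 4.0.16 (R 4.3.3) on the deposited counts, with filterByExpr (minimum count 10, minimum total 15), TMM and a robust quasi-likelihood fit with group as the only term. P-values were adjusted by Benjamini-Hochberg over 14681 genes. The SE is the log2 fold change divided by the root of the F statistic. Alternatives were DESeq2 1.42.0, other scaling and filters, a replicate block and leaving out each library, 13 in all. The fit was tested on simulated data. Libraries of a group differed by more than sampling noise (chi-square per degree of freedom 30.0 to 83.9).

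The 9 genes and all lists were chosen with earlier results of these data known. Also named by rule were Bche, every called pathway gene (or the 2 of smallest p of a role with none), up to 2 called markers per list and direction, and the 3 genes nearest in pattern to the called gene of smallest p in each direction (mean of at least 1 CPM, offset 0.5). Ttr, Dgat1, Rdh9, Rdh10, Rarb, Tgm2, Bco1, Clec4g, Lyve1, Stab1, Cyp2s1, Cyp26c1, Alb, Dcn and Spp1 fall outside that rule. They were picked with their values in view. Positions, start windows and names came from RefSeq GRCm38.p6, in which all 9 genes matched. The plot by role leaves out 1 tested pathway gene, which is not reported here.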

Additional observations from a re-analysis of the deposited data

How the results depend on the processing

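For the 9 genes, 117 values were recomputed under 13 alternatives each: 103 kept direction and call, 12 lost the call, 1 gained it and 1 changed sign. Without single libraries the number called higher ran from 1 to 4 and lower from 2 to 3, and Aldh1a7 ran from -0.17 to 0.06 on the log2 scale, changing sign to 0.061 without DOX 3. For the 60 other pathway genes, the number higher ran from 2 to 8 and lower from 5 to 10 without single libraries. With library size scaling 2 were higher and 17 lower, and that scaling moved the median of all genes from -0.01 to -0.16. With no low-count filter 11 were lower, and the cause was not tested. Of the ratios, which were added after seeing the data, Cyp26a1 to Cyp26b1 ran from 1.27 to 2.10 (log2 difference) without single libraries.

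The replicate numbers gave no clear sign of pairing the libraries, and so few libraries cannot settle whether they were paired. Same-numbered libraries had correlations of 0.09, -0.07 and -0.13 between their deviations from the group means, and not every library correlated best with its own number. With the replicate block 4 of the 9 genes were higher and 3 lower, and 4 and 8 of the other pathway genes. The block ended the calls of Aldh8a1 (adjusted p = 0.0746) and Rxra (adjusted p = 0.0666) and added one for Fabp5 (adjusted p = 0.0409). Over all genes it called 1633 higher and 1849 lower.

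Library size scaling called 1028 genes higher and 3429 lower, against 1975 and 2062 with TMM. Without single libraries the number higher ran from 1208 to 2440 and the number lower from 1305 to 2348. Cyp26b1 had 103 to 466 counts per library, with 466 in DOX 1 beside 141 and 147 in DOX 2 and 3.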
